A study of Mus musculus with 84 samples.

Results

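This is an account of 49 cell cycle and proliferation genes in mouse colon, from RNA scraped from the tissue and ChIP-seq of its epithelium. Of the 49 genes, 16 act in S phase and 31 in G2 and mitosis, with Stmn1 and H2afx besides. They were taken by symbol from a table of 25494 gene rows, in which each had 1 row, and all 49 were among the 15893 genes with enough counts to be tested. They were chosen by measured values of these data, but which values is not stated, so every RNA-seq comparison of them is given here as a description. The study asked how diet and gut bacteria act on the colon of C57BL/6 mice. Its RNA-seq covered 4 groups of 3 male germ-free recipients, all transplanted young, which were gavaged over several weeks with stool from male donors on either diet. HFDHFB recipients ate a high fat diet (HFD) and received bacteria from donors on the HFD (HFB), while HFDLFB recipients ate the HFD and received bacteria from donors on the low fat diet (LFD), called LFB. LFDHFB and LFDLFB recipients ate the LFD with the same donor types. H3K27ac, a histone mark of active promoters and enhancers, was mapped by ChIP-seq in colon epithelium of such recipients (2 HFDHFB libraries and 3 of each other group) and of conventional male and female mice kept far longer on the HFD or LFD (3 libraries of each sex and diet). HNF4a, a nuclear receptor of the gut epithelium, was mapped in 2 male mice on each of these long diets.

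A dividing cell copies its DNA in S phase and separates the copies in mitosis. E2F factors turn on the S phase genes, which encode the enzymes that make nucleotides, the Mcm2 to Mcm7 helicase and the factors that load it on DNA. Genes of G2 and mitosis come on later through FOXM1, B-MYB and NF-Y, which act at promoter elements called the CHR (cell cycle genes homology region) and the CCAAT box. In the colon, dividing cells, the stem cells among them, sit in the lower crypt, while the surface is lined by cells that no longer divide. The level of these genes in a whole sample therefore follows the share of cycling cells as well as the RNA per cell. Bulk RNA cannot tell fewer cells of a type from less RNA per cell.

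The RNA for the recipients was scraped from the colon, and library totals ran from 39904191 to 48026846 counts. Levels are given in CPM, counts scaled to library size after TMM scaling for library composition. Epithelial markers summed to between 9964 and 15656 CPM over their 8 genes, and none of the 8 was at 0 in any library. The RNA was not of epithelium alone, as the 8 smooth muscle markers summed to between 1081 and 6976 CPM. A single library stood apart in the genes described here: in HFDLFB replicate 1, all 49 were below their median over the 12 libraries, and for 48 of the 49 it was the lowest of the 12, against 14.6% of all genes tested. The exception was Cdc6, lowest in HFDLFB replicate 3. The 8 crypt stem markers summed to 117 CPM in that library and to 176 to 242 CPM in the other 11. The 7 mesothelium markers tested summed to 420 and 521 CPM in HFDLFB replicates 1 and 2 and to 50.2 to 217 CPM elsewhere, and the 8 adipocyte markers to 1242 and 3217 CPM in those libraries and to 38.6 to 1153 CPM elsewhere. The 8 fibroblast markers summed to 1290 and 1345 CPM in the same 2 libraries and to 336 to 923 CPM elsewhere. In HFDLFB replicate 2, 34 of the 49 were below their median. There the median log2 difference from the median of the other 11 libraries was −0.33 over G2/M genes and 0.01 over S phase genes. In replicate 1 these differences were −1.68 and −0.86. The part of other cell types in the results below was not tested. For comparisons that use HFDLFB replicate 1, the medians and main counts over the 49 genes are given with and without it. Most values of single genes in the text, and those of several marker lists, are given with all libraries only.

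**Figure D1:**
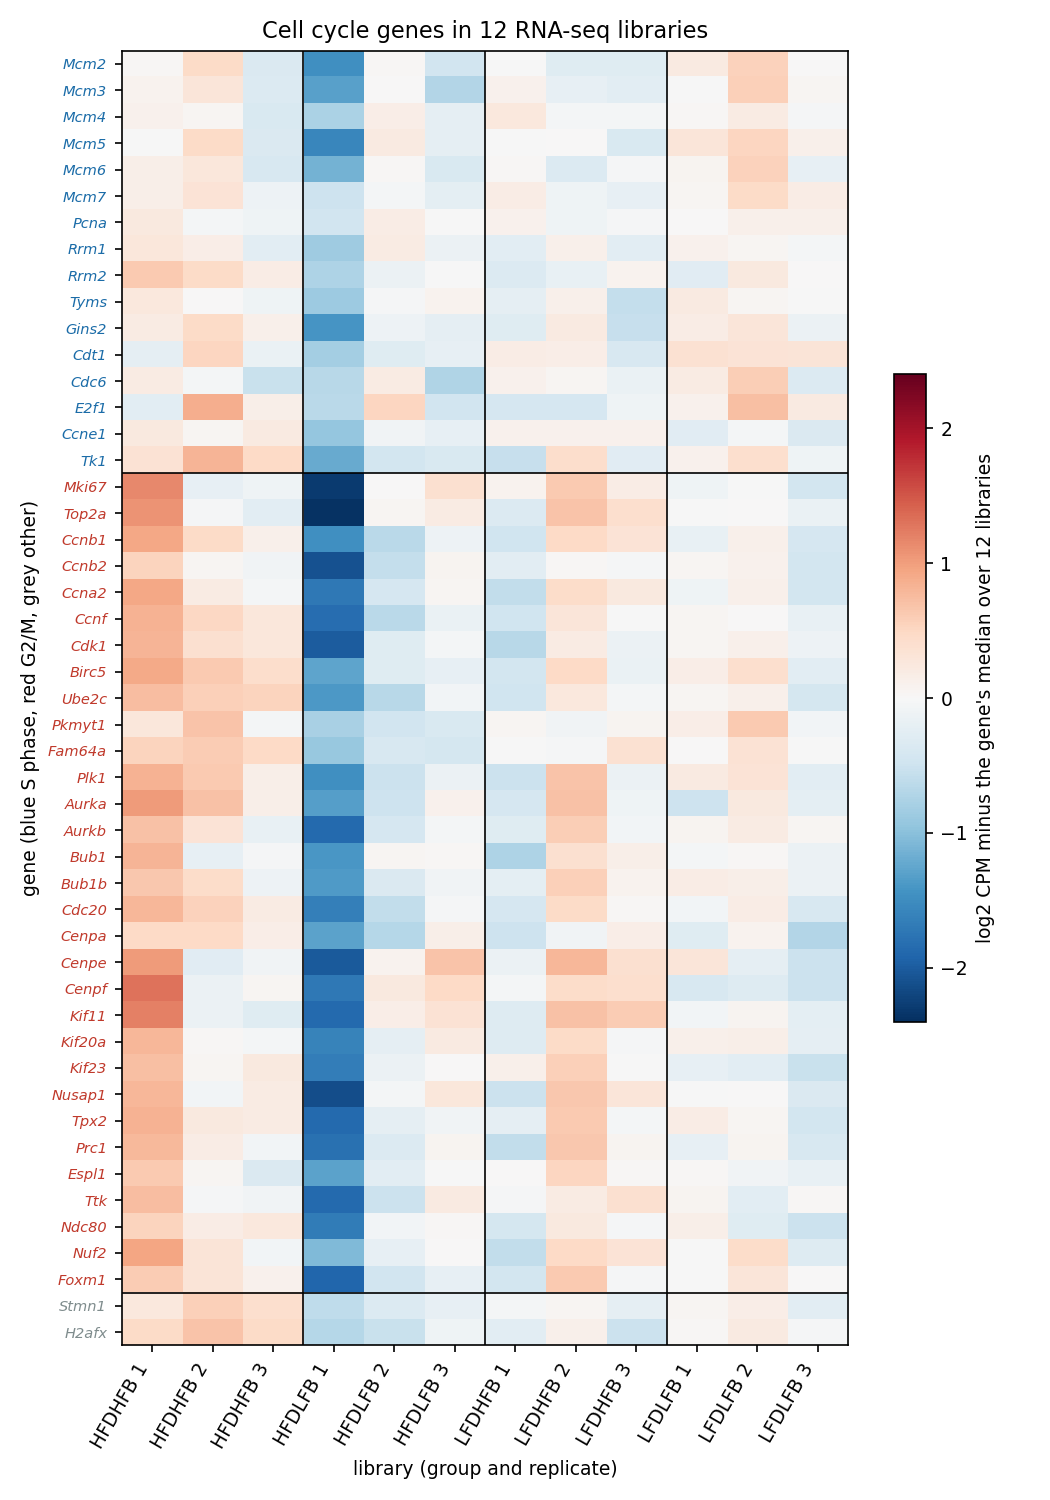
Level of each of the 49 genes in each of the 12 RNA-seq libraries, as log2 CPM minus the gene's own median over the other libraries (red above, blue below), with S phase genes at the top, G2/M genes below and Stmn1 and H2afx last. The colour bar is labelled as the median over 12 libraries, but each library is left out of its own median. The column of HFDLFB replicate 1 is blue throughout, and that of HFDHFB replicate 1 is the reddest among the G2/M genes.

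Per kilobase of exon, the most abundant of the 49 genes was Pcna, the sliding clamp of DNA polymerases, at a median of 25.9 CPM per kb over the 12 libraries (range 19.1 to 30.3). Stmn1, a protein that destabilises microtubules, followed at 14.5 (9.59 to 21.2), then H2afx, the histone variant marked at DNA breaks, at 11.8 (7.40 to 18.7), and Ccnb2, a mitotic cyclin, at 10.7 (2.497 to 15.4). The ranges of these last 3 overlapped. Mki67, the gene of the Ki-67 protein by which dividing cells are stained, came 15th of 49 per kb, at 4.37 CPM per kb (0.89 to 9.71). The lowest were Cdc6, Espl1 and Fam64a at 0.58, 0.50 and 0.48 CPM per kb.

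Among S phase genes, the origin and helicase genes came first. Mcm2, a helicase subunit, measured 16.9, 22.7 and 13.2 CPM in the HFDHFB libraries (replicates 1 to 3), 5.97, 16.9 and 12.1 in HFDLFB, 16.6, 13.7 and 13.6 in LFDHFB and 19.2, 24.2 and 16.7 in LFDLFB. Mcm5, another subunit, measured 18.1, 24.8 and 14.3 CPM in HFDHFB, 6.11, 20.99 and 15.7 in HFDLFB, 18, 18.2 and 14.05 in LFDHFB and 22.04, 25.8 and 19.6 in LFDLFB. The LFDLFB libraries were among the higher for both, HFDLFB replicate 1 was far below the next lowest library, and the groups overlapped. LFDLFB replicate 2 was the highest of the 12 libraries for 6 S phase genes, Mcm2, Mcm3, Mcm5, Mcm6, Mcm7 and Cdc6, against 4.94% of all genes tested, and for none of the 31 G2/M genes; these 6 were named after their values were seen. Cdt1, which loads the helicase on origins, measured 8.33, 12.5 and 8.72 CPM in HFDHFB, 5.504, 7.93 and 8.52 in HFDLFB, 9.86, 9.72 and 7.41 in LFDHFB and 11.2, 10.9 and 10.8 in LFDLFB. Its 3 LFDLFB libraries lay close together, and only HFDHFB replicate 2 was above them.

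Pcna varied least, at 72.6, 60.2 and 58.04 CPM in HFDHFB, 45.8, 69.7 and 61.9 in HFDLFB, 66.9, 58.1 and 61.2 in LFDHFB and 62.5, 67.2 and 67.2 in LFDLFB. Rrm2, the subunit of ribonucleotide reductase that limits the supply of deoxynucleotides, measured 9.76, 8.63 and 7.14 CPM in HFDHFB, 3.76, 5.71 and 6.27 in HFDLFB, 5.05, 5.57 and 6.68 in LFDHFB and 5.26, 7.41 and 6.31 in LFDLFB. Its 3 HFDHFB libraries were all above the 3 HFDLFB libraries, whereas those of Pcna overlapped. The regulators were lower. E2f1, an activator of S phase genes, measured 3.199, 6.52 and 3.93 CPM in HFDHFB, 2.44, 5.05 and 2.76 in HFDLFB, 2.87, 2.88 and 3.54 in LFDHFB and 3.82, 5.88 and 4.12 in LFDLFB. Ccne1, the cyclin of the G1 to S transition, measured 4.93, 4.33 and 4.86 CPM in HFDHFB, 2.26, 4.06 and 3.74 in HFDLFB, 4.49, 4.52 and 4.52 in LFDHFB and 3.56, 4.198 and 3.41 in LFDLFB. E2f1 spread widely within each group on the HFD, and in HFDHFB replicate 1, where the G2/M genes were at their highest, it was below its median. For Ccne1 the HFDHFB libraries were above the HFDLFB libraries without overlap.

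The RefSeq promoters of these genes (GRCm38.p6, 250 bases before to 50 after the start) were searched on both strands for the letters of 3 elements: TTTGAA for the CHR, CCAAT for the CCAAT box, and TTTCCCGC, TTTCGCGC, TTTGCCGC or TTTGGCGC for E2F. The table held 38 of the 49 genes, 14 of S phase and 24 of G2/M; 2 of the 38 had more than 1 promoter and were counted when any held a match. Aurkb, Ccna2, Fam64a, Foxm1, Gins2, H2afx, Kif20a, Mcm4, Pkmyt1, Stmn1 and Tpx2 had no entry matched. E2F letters were found at 6 of 14 S phase genes (42.9%: Mcm3, Mcm5, Mcm6, Mcm7, Cdc6 and Cdt1) and at 1 of 24 G2/M genes (4.17%, Cdk1), against 2.26% of 32851 promoter windows. CHR letters were found at 1 of 14 S phase genes (7.14%, Mcm2) and at 18 of 24 G2/M genes (75.0%), against 17.9% of windows. CCAAT was found at 8 of 14 S phase genes (57.1%) and 20 of 24 G2/M genes (83.3%), against 37.4%. CHR and CCAAT letters stood together at 17 of the 24 G2/M genes (70.8%), 1 of the 14 S phase genes (7.14%) and 6.95% of windows. A match is only a match of letters. The stretches from 150 bases before to 30 after the start are shown, 5′ to 3′ on the gene's strand, for those of the 16 genes fixed by name to be given in every library whose stretch holds a match, since they show how the elements are laid out; capitals mark the matches, which can overlap. The S phase genes were these.
Mcm2, chr6:88898751-88898930, strand -: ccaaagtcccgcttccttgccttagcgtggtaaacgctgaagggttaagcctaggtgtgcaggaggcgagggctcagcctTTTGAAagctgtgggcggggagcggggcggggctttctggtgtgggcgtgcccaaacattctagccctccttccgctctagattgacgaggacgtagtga
Mcm5, chr8:75109359-75109538, strand +: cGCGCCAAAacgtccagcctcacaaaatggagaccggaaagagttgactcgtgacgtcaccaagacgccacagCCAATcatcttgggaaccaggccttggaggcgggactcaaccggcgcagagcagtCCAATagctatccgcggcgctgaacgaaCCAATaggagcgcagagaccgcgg
Pcna, chr2:132253151-132253330, strand -: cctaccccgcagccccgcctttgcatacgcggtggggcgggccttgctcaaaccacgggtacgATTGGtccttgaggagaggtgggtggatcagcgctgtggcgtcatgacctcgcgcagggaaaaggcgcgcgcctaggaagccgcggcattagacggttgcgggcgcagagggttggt
Rrm2, chr12:24708104-24708283, strand +: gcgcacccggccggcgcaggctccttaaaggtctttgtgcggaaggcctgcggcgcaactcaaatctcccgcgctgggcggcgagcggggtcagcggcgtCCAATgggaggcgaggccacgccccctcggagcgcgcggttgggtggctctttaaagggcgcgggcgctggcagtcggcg
Counting the start as base 1 and the base before it as −1, the Mcm5 stretch opens with an E2F word on the opposite strand whose first letter lies at base −149 and which overlaps another E2F word, begun at base −153 and so not wholly shown. CCAAT follows at bases −77, −22 and 7. The Rrm2 and Pcna stretches hold CCAAT letters only and that of Mcm2 CHR letters only.

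The G2/M genes were higher in some libraries and lower in others to a greater degree than the S phase genes. Mki67 measured 97.8, 38.5 and 41.3 CPM in the HFDHFB libraries (replicates 1 to 3), 8.95, 44.1 and 57.4 in HFDLFB, 46.9, 68.3 and 49.9 in LFDHFB and 41.3, 43.99 and 32.7 in LFDLFB. The highest library, HFDHFB replicate 1, and the lowest, HFDLFB replicate 1, were both on the HFD, and the other 10 lay between 32.7 and 68.3 CPM. Top2a, the topoisomerase that untangles replicated DNA, measured 66.3, 31.1 and 26.7 CPM in HFDHFB, 6.11, 32.5 and 36.3 in HFDLFB, 25.6, 50.6 and 41.7 in LFDHFB and 31.6, 31.9 and 28.5 in LFDLFB. It had the same highest and lowest library, and the groups overlapped for both genes.

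Of the other G2/M genes, Ccnb1, the cyclin that activates Cdk1 at entry into mitosis, measured 14.6, 10.5 and 8.28 CPM in HFDHFB, 2.95, 5.25 and 7.63 in HFDLFB, 5.94, 10.6 and 9.55 in LFDHFB and 7.28, 8.31 and 6.25 in LFDLFB. Cdk1 itself measured 32.6, 24.4 and 22.5 CPM in HFDHFB, 4.74, 15.6 and 18.6 in HFDLFB, 12.1, 21.2 and 17.4 in LFDHFB and 19.2, 20.3 and 17.6 in LFDLFB. Plk1, a kinase of mitotic entry and spindle assembly, measured 12.2, 10.5 and 7.43 CPM in HFDHFB, 2.66, 5.199 and 6.78 in HFDLFB, 5.18, 10.9 and 6.76 in LFDHFB and 7.88, 8.57 and 6.22 in LFDLFB. For all 3 the HFDHFB libraries lay above the HFDLFB libraries without overlap, while LFDHFB and LFDLFB overlapped. Aurkb, the kinase of the chromosomal passenger complex, measured 10.3, 7.96 and 5.73 CPM in HFDHFB, 1.75, 4.91 and 6.29 in HFDLFB, 5.32, 9.56 and 6.22 in LFDHFB and 6.56, 7.26 and 6.47 in LFDLFB. Foxm1, the transcription factor of G2/M genes, measured 8.91, 7.19 and 6.24 CPM in HFDHFB, 1.52, 4.26 and 5.05 in HFDLFB, 4.27, 8.97 and 5.71 in LFDHFB and 5.799, 7.06 and 5.83 in LFDLFB. Aurkb overlapped between HFDHFB and HFDLFB through HFDHFB replicate 3 and HFDLFB replicate 3, and Foxm1 did not. The promoter stretches of 5 of these genes, drawn as above, follow.
Mki67, chr7:135716350-135716529, strand -: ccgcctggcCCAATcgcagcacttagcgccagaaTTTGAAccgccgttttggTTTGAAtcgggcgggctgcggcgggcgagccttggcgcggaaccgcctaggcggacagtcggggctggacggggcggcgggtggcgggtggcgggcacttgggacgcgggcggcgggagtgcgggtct
Top2a, chr11:99024160-99024339, strand -: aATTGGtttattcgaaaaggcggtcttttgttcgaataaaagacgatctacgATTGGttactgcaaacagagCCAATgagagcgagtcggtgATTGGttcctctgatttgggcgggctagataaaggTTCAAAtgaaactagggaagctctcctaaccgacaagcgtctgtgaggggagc
Ccnb1, chr13:100786457-100786636, strand -: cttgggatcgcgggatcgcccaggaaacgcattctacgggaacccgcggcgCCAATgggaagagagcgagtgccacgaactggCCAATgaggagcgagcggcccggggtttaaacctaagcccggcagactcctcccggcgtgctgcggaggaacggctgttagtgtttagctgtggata
Cdk1, chr10:69352883-69353062, strand -: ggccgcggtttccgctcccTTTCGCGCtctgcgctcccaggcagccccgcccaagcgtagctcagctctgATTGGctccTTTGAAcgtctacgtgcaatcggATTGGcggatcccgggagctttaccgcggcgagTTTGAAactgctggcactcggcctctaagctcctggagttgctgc
Plk1, chr7:122159285-122159464, strand +: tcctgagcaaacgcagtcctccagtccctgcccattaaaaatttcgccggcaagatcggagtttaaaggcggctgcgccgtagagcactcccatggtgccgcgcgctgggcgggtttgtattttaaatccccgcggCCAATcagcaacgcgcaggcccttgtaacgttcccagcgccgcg
Cdk1 holds CHR letters at bases −71 and −15, CCAAT on the opposite strand at bases −80 and −48, and the E2F letters of the G2/M list. In Top2a the CHR letters lie on the opposite strand at base −23, after 4 CCAAT matches in the stretch, and its window holds CHR letters at base −179 too, outside the stretch. Ccnb1 holds CCAAT at bases −99 and −67 and no TTTGAA in its window, and the CHR letters of Plk1 begin at base 31, just past what is shown.

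Stmn1 and H2afx, which belong to neither phase list, had the smallest spread relative to their difference. Stmn1 measured 32.8, 40.7 and 35.99 CPM in the HFDHFB libraries (replicates 1 to 3), 18.4, 22.3 and 24.5 in HFDLFB, 27.4, 28.2 and 24.3 in LFDHFB and 28.2, 30.6 and 23.6 in LFDLFB. H2afx measured 21.6, 25.3 and 21.7 CPM in HFDHFB, 10.05, 11.1 and 14.98 in HFDLFB, 13.4, 17.3 and 11.3 in LFDHFB and 16.1, 18.3 and 15.8 in LFDLFB. In both genes the 3 HFDHFB libraries were the 3 highest of all 12.

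**Figure D2:**
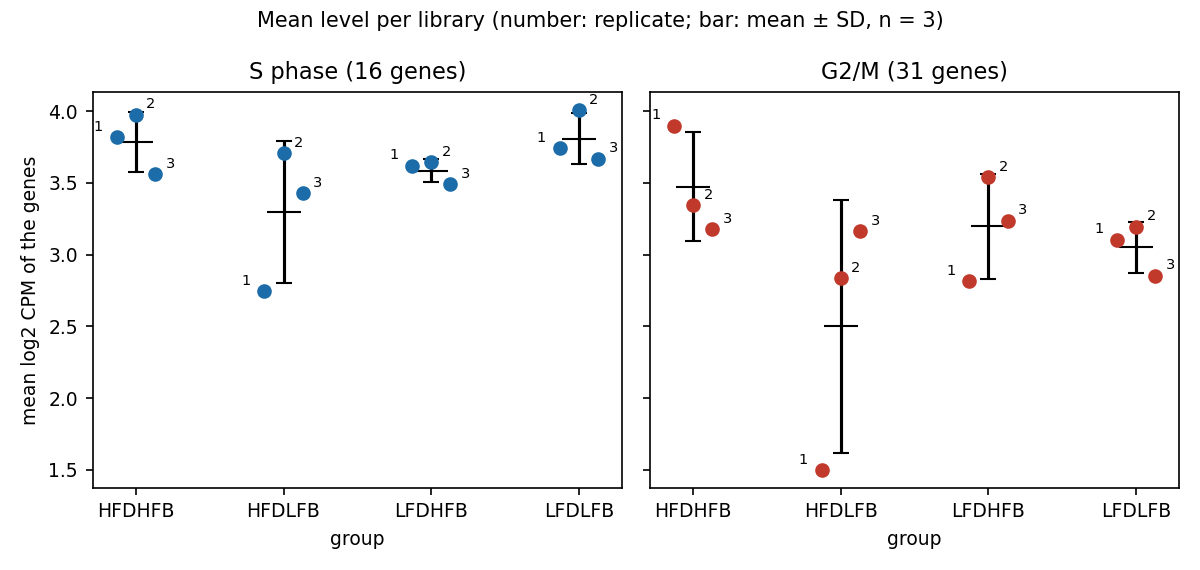
Mean log2 CPM over the 16 S phase genes (left) and over the 31 G2/M genes (right) in each library; points are libraries, numbered by replicate, and bars give the group mean ± SD (n = 3). HFDLFB replicate 1 lies lowest in both panels, at 2.75 and 1.4997, and the axis does not start at 0.

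Averaged over the list, S phase genes stood at a mean log2 CPM of 3.79 ± 0.21 (SD, n = 3) in HFDHFB, 3.30 ± 0.49 in HFDLFB, 3.59 ± 0.08 in LFDHFB and 3.81 ± 0.18 in LFDLFB. G2/M genes stood at 3.47 ± 0.38, 2.499 ± 0.88, 3.20 ± 0.36 and 3.05 ± 0.18. The lists thus spread differently: outside HFDLFB replicate 1, library means ran from 3.43 to 4.01 for S phase and from 2.81 to 3.90 for G2/M. The difference of the means, S phase minus G2/M, was −0.08 in HFDHFB replicate 1 and 1.25 in HFDLFB replicate 1, the extremes of the 12. Over the 12 libraries the genes of each list moved together, with a median Pearson r of 0.71 between pairs of S phase genes and 0.90 between pairs of G2/M genes, and the means of the lists had an r of 0.78. These r describe 12 libraries of 4 groups that share HFDLFB replicate 1: without it (n = 11) they were 0.40, 0.73 and 0.24.

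On the HFD, the question is how bacteria from HFD donors compare with bacteria from LFD donors (HFDHFB against HFDLFB). All 49 genes had a positive log2 fold change, with a median of 0.42 over S phase genes (0.11 to 1.08), 0.82 over G2/M genes (0.42 to 1.29) and 0.00 over all genes tested, 49.7% of which were above 0. With edgeR none of the 49 had an adjusted p under 0.05, and neither did any of the 15893 genes (0%). At an unadjusted p under 0.05, 19 of the 49 were higher in HFDHFB (2 S phase, 15 G2/M, Stmn1 and H2afx) and none lower, against 4.85% of all genes higher and 4.22% lower. In 21 of the 49 (4 S phase, 15 G2/M, Stmn1 and H2afx) every HFDHFB library was above every HFDLFB library, which held for 8.11% of all genes tested; without HFDLFB replicate 1 it held for 21 and for 13.3% of all genes, since fewer libraries have to be passed. Markers of goblet cells, the mucus cells of the crypt, were also positive in this comparison, 8 of 8 with a median of 0.52 and 4 at an unadjusted p under 0.05 (8 of 8, 0.36 and 3 without that library), and Muc2, the main gut mucin, stood at 1.47 (SE 0.44). Smooth muscle markers were 8 of 8 positive (median 0.77, and 1.44 without that library), and epithelium and crypt stem markers 7 of 8 each (0.20 and 0.49). Mesothelium markers were 0 of 7 positive (−2.37) and adipocyte markers 0 of 8 (−2.91), with 7 and 6 lower at that threshold. Absorptive colonocyte and fibroblast markers were 3 of 8 positive each (−0.14 and −0.15), leukocyte markers 1 of 8 (−0.47) and B cell markers 1 of 7 (−0.26). The part of these cell types in the values of the 49 was not tested. DESeq2, the tool the study used, called 5 of the 49 at an adjusted p under 0.05, and 80 of 16421 genes (0.487%; 0.11% called as higher).

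The 5 that DESeq2 called were Stmn1, H2afx, Fam64a, Ube2c and Tk1, all higher in 3 of 3 HFDHFB libraries than in any HFDLFB library. Their DESeq2 log2 fold changes and adjusted p were 0.73 and 0.00523 for Stmn1, 0.91 and 0.00850 for H2afx, 1.12 and 0.0289 for Fam64a, 1.18 and 0.0332 for Ube2c and 1.07 and 0.0432 for Tk1. Fam64a is a mitotic gene now named Pimreg, Ube2c the ubiquitin carrier of the anaphase promoting complex, and Tk1 the thymidine kinase of the salvage pathway. In edgeR the same genes had log2 fold changes of 0.74 (SE 0.14), 0.93 (SE 0.19), 1.13 (SE 0.28), 1.19 (SE 0.29) and 1.08 (SE 0.28), each with an adjusted p of 0.495. Ube2c measured 25.4, 22.5 and 22 CPM in the HFDHFB libraries (replicates 1 to 3), 5.95, 9.87 and 14.8 in HFDLFB, 11.2, 18.05 and 15.2 in LFDHFB and 15.6, 16.4 and 11.7 in LFDLFB. Tk1 measured 13, 18.01 and 14.4 CPM in HFDHFB, 4.74, 8.15 and 8.57 in HFDLFB, 7.497, 13.7 and 9.18 in LFDHFB and 11.1, 13.6 and 10.3 in LFDLFB. The number that DESeq2 called turned on single libraries: it was 0 without HFDLFB replicate 1 (22 of 16384 genes called, 0.134%), 0 without HFDLFB replicate 2 (12 of 15255, 0.0787%), 0 without HFDHFB replicate 2 (5 of 19374, 0.0258%) and 14 without HFDLFB replicate 3 (449 of 17135, 2.62%). The calls over all genes thus moved with the same libraries.

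The largest edgeR log2 fold changes were those of Ccnf, a cyclin-like subunit of a ubiquitin ligase, at 1.29 (SE 0.37), and of Ube2c at 1.19 (SE 0.29), followed by Fam64a at 1.13 (SE 0.28) and Cdc20, an activator of the anaphase promoting complex, at 1.12 (SE 0.36). Of the kinases of mitosis, values were 1.08 (SE 0.38) for Aurka, 1.04 (SE 0.36) for Plk1, 1.03 (SE 0.39) for Cdk1 and 0.89 (SE 0.41) for Aurkb. Foxm1 stood at 1.04 (SE 0.40) and Birc5, the survivin subunit of the passenger complex, at 1.02 (SE 0.29). None of these passed the edgeR test. Their SE is the error of the fold change from 1 fit over the 4 groups, not the spread of the libraries within a group. Wider errors, with smaller values, stood at Cenpe, a kinetochore motor, with 0.42 (SE 0.54), Kif11 at 0.63 (SE 0.51), Cenpf at 0.62 (SE 0.49) and Mki67 at 0.69 (SE 0.54). Among S phase genes the helicase subunits ran from 0.16 (SE 0.21) for Mcm4 to 0.61 (SE 0.30) for Mcm3, and Pcna had the lowest value of the 49, 0.11 (SE 0.15). Genes of nucleotide supply split, with Tk1 at 1.08 (SE 0.28) and Rrm2 at 0.70 (SE 0.24) but Rrm1 at 0.26 (SE 0.22) and Tyms, the thymidylate synthase, at 0.28 (SE 0.24).

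**Figure D3:**
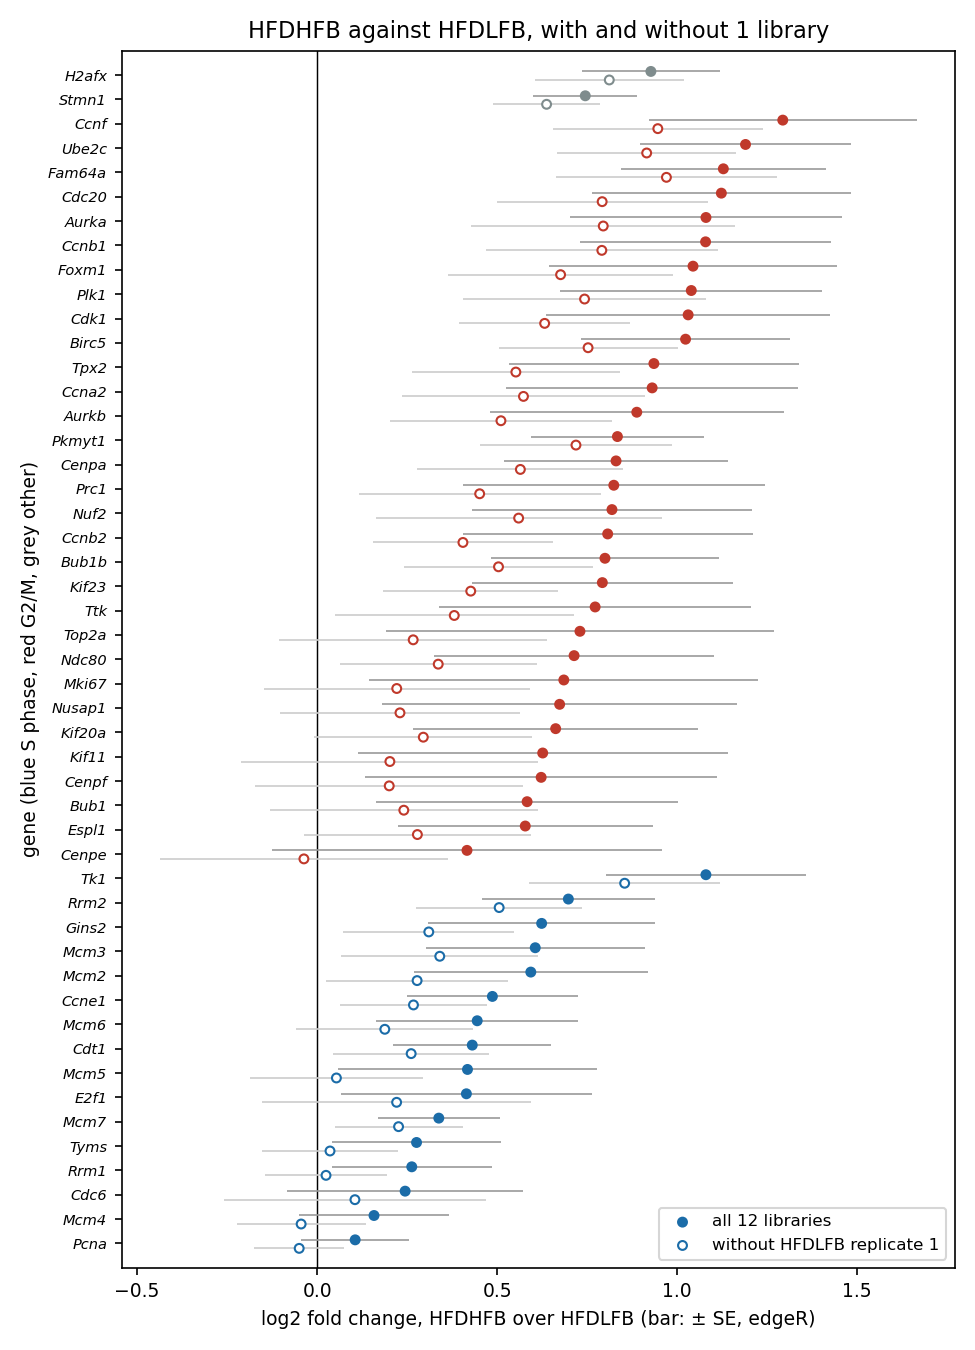
edgeR log2 fold change of each of the 49 genes, HFDHFB over HFDLFB, with its SE, from all 12 libraries (filled) and without HFDLFB replicate 1 (open). With all libraries every value is above 0; without that library all 49 are smaller and 46 are above 0.

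Without HFDLFB replicate 1 the values were smaller for all 49 genes, with a median of 0.22 over S phase genes and 0.51 over G2/M genes, and 11 of the 49 had an unadjusted p under 0.05 (1 S phase and 8 G2/M gene among them) against 3.65% of all genes higher. Then 3 genes lay just below 0, Mcm4 at −0.04 (SE 0.18), Pcna at −0.05 (SE 0.13) and Cenpe at −0.04 (SE 0.40). The lowest adjusted p of the 49 was 0.647 (edgeR), against 0.495 with all libraries. Without HFDHFB replicate 1, the library with the highest G2/M values, the medians were 0.45 and 0.60, and 11 of the 49 had an unadjusted p under 0.05 against 6.19% of all genes higher. Without HFDLFB replicate 3 there were 30, against 6.08% of all genes.

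On the LFD, the same comparison of donors (LFDHFB against LFDLFB) gave values on either side of 0. The median log2 fold change was −0.25 over S phase genes, with 14 of 16 negative, and 0.15 over G2/M genes, with 27 of 31 positive, beside 0.02 over all genes tested, 53.5% of which were above 0. The most negative value was E2f1 at −0.57 (SE 0.35) and the most positive Cenpf at 0.65 (SE 0.49). None of the 49 passed in edgeR, none had an unadjusted p under 0.05, and DESeq2 called none, where edgeR and DESeq2 both called 0% of all genes and 2.01% were higher and 1.72% lower at an unadjusted p under 0.05. The G2/M median rested on LFDHFB replicate 2, without which it was −0.02 and 16 of the 49 values were positive, and it was 0.03 without LFDLFB replicate 3. The S phase median was −0.12 without LFDLFB replicate 2.

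Between diets, with bacteria from HFD donors (HFDHFB against LFDHFB), 45 of the 49 were above 0, as were 45.3% of all genes, and the median was 0.16 over S phase genes and 0.27 over G2/M genes. Neither edgeR (0% of all genes) nor DESeq2 (1.06%) called any of the 49, and 4 had an unadjusted p under 0.05, all higher on the HFD: H2afx at 0.71 (SE 0.19), Stmn1 at 0.45 (SE 0.14), Rrm2 at 0.56 (SE 0.24) and Ube2c at 0.65 (SE 0.29), against 5.25% of all genes higher and 2.21% lower. The G2/M median was 0.02 without HFDHFB replicate 1 and 0.09 without LFDHFB replicate 1, and the S phase median was 0.06 without HFDHFB replicate 2 and 0.08 without LFDHFB replicate 3. With bacteria from LFD donors (HFDLFB against LFDLFB), the values were negative for 47 of the 49 where 50.7% of all genes were above 0, with medians of −0.47 over S phase and −0.43 over G2/M genes. Again edgeR (0%) and DESeq2 (0.0463%) called none of the 49, and 9 had an unadjusted p under 0.05, all lower on the HFD (Pkmyt1, Cdt1, Mcm3, Mcm7, Tk1, H2afx, Fam64a, Mcm2 and Stmn1), against 3.57% of all genes higher and 1.76% lower. These 2 comparisons and the 2 of donors share their groups, so their values are not independent of each other. HFDLFB against LFDLFB depended on HFDLFB replicate 1, for the G2/M genes more than for the S phase genes. Without it the medians were −0.26 over S phase and −0.06 over G2/M genes, and 35 of the 49 were negative. Of the 49, 1 then had an unadjusted p under 0.05, against 1.19% of all genes lower. Without HFDLFB replicate 3 there were 20, against 2.99%, and without LFDLFB replicate 2 there were 2, against 0.696%.

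The difference between the diets in the effect of the donor, tested as an interaction, was 0.72 over S phase genes and 0.70 over G2/M genes by the median of the log2 scale, against −0.05 over all genes tested, and 47 of the 49 were above 0, as were 45.7% of all genes. edgeR called none of the 49 (0% of all genes), with 12 at an unadjusted p under 0.05, all positive, against 6.34% of all genes positive and 4.95% negative. DESeq2 called H2afx (log2 difference 1.17, adjusted p = 0.0273) among 72 of 10408 genes (0.692%). In edgeR H2afx stood at 1.18 (SE 0.27) with an adjusted p of 0.386. Without HFDLFB replicate 1 the medians were 0.47 and 0.40, with 9 of the 49 at an unadjusted p under 0.05, and without HFDLFB replicate 3 there were 22. The shares of all genes positive at that threshold were 5.61% and 7.33%. DESeq2 then called 0 of the 49 among 12 of 15255 genes (0.0787%) and 4 among 303 of 16759 (1.81%).

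Genes of the same pathways that are not among the 49 were compared in HFDHFB against HFDLFB, where 4.85% of all genes were higher and 4.22% lower at an unadjusted p under 0.05. Of 32 further S phase genes measured, 26 had a positive log2 fold change (median 0.37) and 10 an unadjusted p under 0.05, all higher. Of 33 further G2/M genes, 29 were positive (median 0.51) and 7 had an unadjusted p under 0.05, all higher. Of 17 genes of G1 and of the brakes on the cycle, 9 were positive (median 0.00), with 2 higher and 1 lower at that threshold. edgeR and DESeq2 called none in these 3 lists. Without HFDLFB replicate 1, 20 of the 32 further S phase genes were positive (median 0.19) with none at an unadjusted p under 0.05, 25 of the 33 further G2/M genes were positive (median 0.24) with 4 higher, and 9 of the 17 others were positive (median 0.02) with 1 higher, against 3.65% of all genes higher. Ccnd1, the cyclin D of the colon crypt, measured 57.7, 59.8 and 50.9 CPM in the HFDHFB libraries (replicates 1 to 3), 34.1, 40.2 and 35.7 in HFDLFB, 56.1, 39.2 and 47.7 in LFDHFB and 48.1, 66.9 and 36.4 in LFDLFB, and its log2 fold change was 0.61 (SE 0.20). Cdkn1b, the p27 inhibitor of cyclin-dependent kinases, measured 43.4, 47.9 and 40.9 CPM in HFDHFB, 57.5, 48.7 and 62.6 in HFDLFB, 44.3, 48.2 and 59.7 in LFDHFB and 58.4, 46.4 and 52.8 in LFDLFB, with a log2 fold change of −0.35 (SE 0.14). Cdkn1a, the p21 inhibitor, measured 494, 479 and 579 CPM in HFDHFB, 518, 477 and 544 in HFDLFB, 501, 710 and 288 in LFDHFB and 570, 465 and 680 in LFDLFB, with 0.01 (SE 0.27). For Ccnd1 the HFDHFB libraries lay above the HFDLFB libraries and for Cdkn1b below them, without overlap in either, while Cdkn1a overlapped. Among the genes outside the list whose log2 CPM followed the mean of the 49 most closely over the 12 libraries were Racgap1 (r of 0.98), Ncapd2, D17H6S56E-5 and Kif4 (0.97 each), and without HFDLFB replicate 1 (n = 11) their r were 0.94, 0.93, 0.89 and 0.87.

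H3K27ac peaks were looked for within 1000 bp of each gene's start, as the count table gives it on mm9. In all 23 libraries, 43 of the 49 genes had a peak there (14 of 16 S phase and 27 of 31 G2/M genes), against 43.4% of all rows of the table, 66.3% of the genes tested and 69.5% of those tested within the same range of counts. Per library, 46 to 48 of the 49 had a peak, against 47.9% to 51.2% of all rows. HFDLFB replicate 1 of the ChIP-seq, which the labels do not tie to the RNA-seq mouse of that number, had 48, against 51.1% of all rows. Of the other 6 genes, Mcm3 had a peak in 17 libraries, Cenpf in 21, and Rrm2, Bub1 and Ttk in 22 each. The 2 libraries without a peak at Cenpf, LFDHFB replicates 2 and 3, were both of 1 group, whereas the 6 without a peak at Mcm3 came from as many groups. Fam64a had none in any library, as did 42.7% of all rows, 17.5% of the genes tested and 13.2% of those in the same range of counts, and the nearest listed peak lay a median of 86797 bp away, although its RNA was counted in every RNA-seq library, at 0.627 to 1.87 CPM. The lists hold positions without heights, so presence and width are what can be compared, and no test was made.

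Over the list as a whole, peaks at these genes were narrower than at all genes, which were not matched for counts. The median width per library was 1800 to 2600 bp at the 49 genes and 2400 to 3000 bp at all genes with a peak at the start, and it was below the median of all genes in every library except HFD male replicate 1, where both were 2400 bp. The median over G2/M genes was below that of all genes in every library. The S phase median was above it in HFD male replicate 1 (2600 against 2400 bp) and HFD female replicate 1 (2900 against 2600 bp). In HFDLFB replicate 2 and LFDLFB replicate 2 the S phase median was equal to it. By group, the mean of the library medians at the 49 genes ran from 2000 ± 200 bp (SD, n = 3) in LFD females to 2433 ± 153 bp (n = 3) in HFDLFB, and the HFDHFB libraries, at 2000 and 2600 bp, spanned the HFDLFB range of 2300 to 2600 bp. The widest peak was at Tk1, with a median of 11000 bp and a range of 2000 to 29600 bp, where the start of Afmid lies 95 bp away. Cdc6 followed at 5800 bp, Birc5 at 4400 bp and Mki67 at 4000 bp, and the narrowest was at Gins2, a subunit of the replicative helicase, at 800 bp. Mcm3, which lacked a peak in 6 libraries, had a median of 1200 bp in the other 17.

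**Figure D4:**
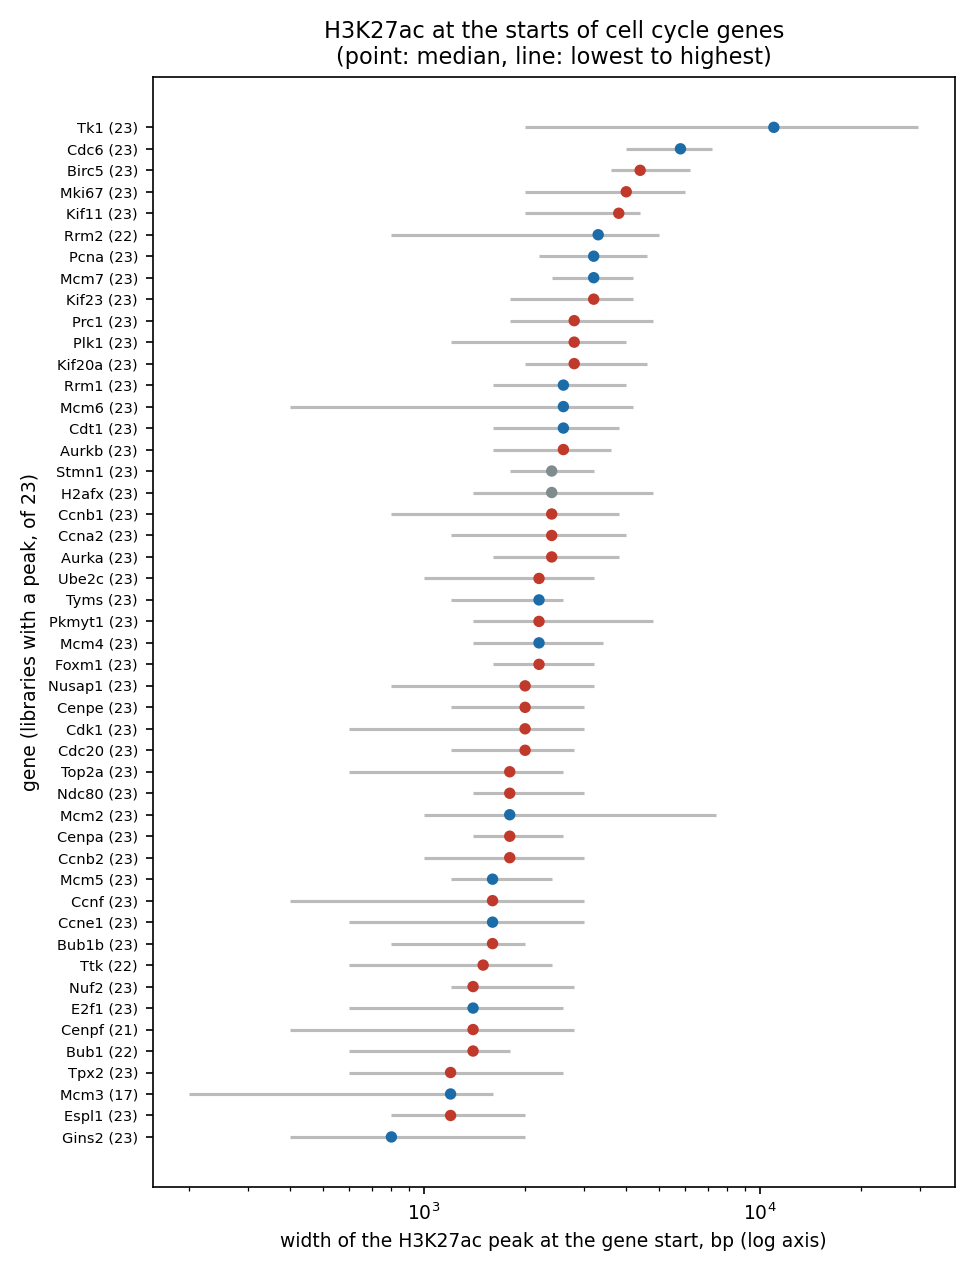
Width in bp, on a log axis, of the H3K27ac peak within 1000 bp of the start of 48 of the 49 genes (Fam64a had none); points are medians over the libraries with a peak, whose number of 23 stands in brackets, and lines run from the lowest to the highest. Tk1 is widest at 11000 bp and Gins2 narrowest at 800 bp.

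HNF4a peaks within 1000 bp of the start were listed for 29 of the 49 genes in at least 1 of the 4 libraries (9 of 16 S phase, 19 of 31 G2/M, and Stmn1), against 30.3% of all rows, 45.4% of the genes tested and 46.4% of those in the same range of counts. Of the 29, 16 had a peak in 1 library, 9 in 2, 1 in 3 and 3 in all 4. By library, 8 and 13 of the 49 genes had a peak in HFD replicates 1 and 2, against 12.9% and 14.2% of all rows. In LFD replicates 1 and 2 there were 17 and 11, against 17.2% and 14.6% of all rows. The 3 of 49 with a peak in all 4 libraries were near the background of 4.36% of all rows, 6.58% of the genes tested and 5.57% of those in the same range of counts. The spread between replicates of a diet was as large as that between diets. The 3 were Kif11, a motor that pushes spindle poles apart, Ube2c and Mcm7. At Kif11 the peak centres lay at −184 to −150 bp from the start and at Ube2c at −306 to −266 bp, on the side before the gene. At Mcm7 3 centres lay 582 to 694 bp into the gene and that of HFD replicate 2 lay at −104 bp, and the start of Ap4m1 is 159 bp away.

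**Figure D5:**
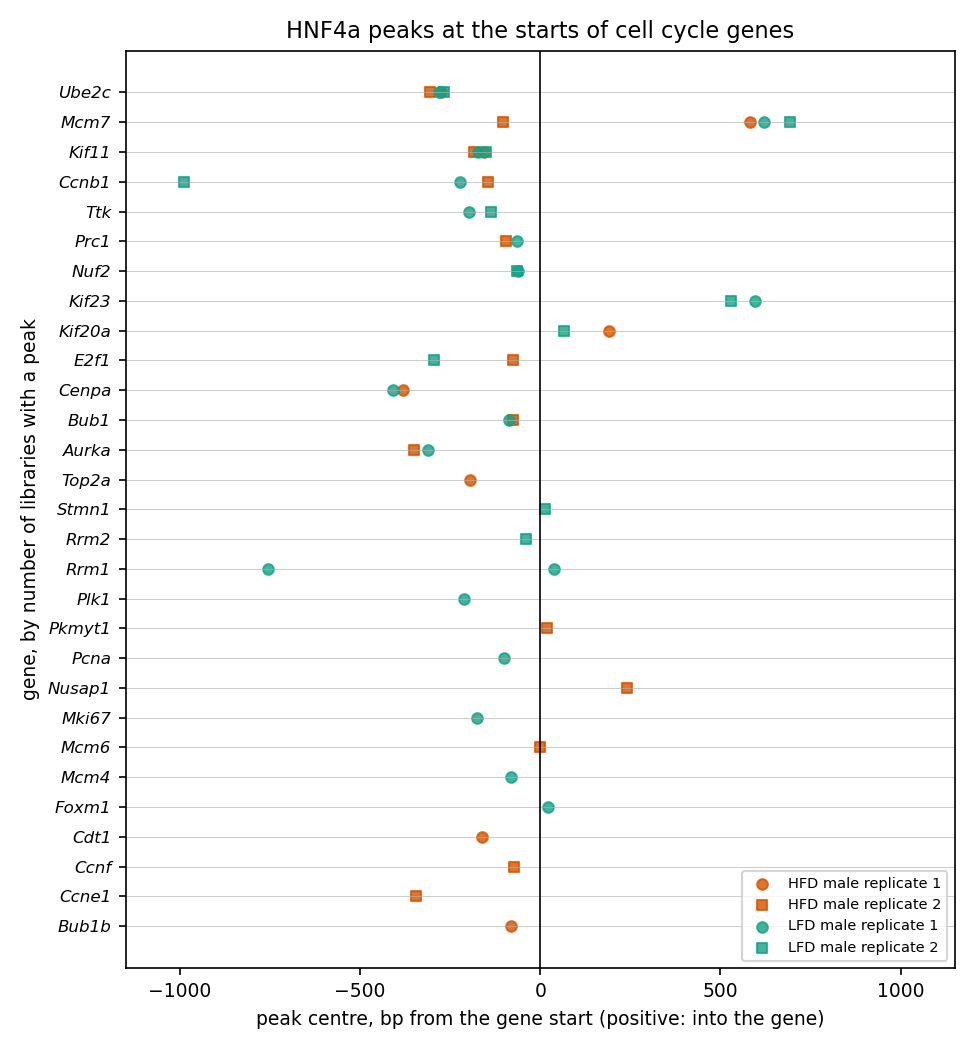
Distance in bp of each HNF4a peak centre from the start of the gene (negative before the start, positive into the gene) for the 29 genes with a peak; colour gives the diet and shape the replicate. The centres of the 4 libraries coincide within 40 bp at Ube2c and Kif11, and most other genes have a peak in 1 or 2 libraries.

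The stretches common to the 4 peaks at Ube2c and Kif11 are shown on mm9, since they are the places near these genes where HNF4a was listed in every library. Capitals mark the letters of HNF4a's own motif, searched as CAAAGGTCA, CAAAGTCCA, CAAAGGCCA or CAAAGTTCA on both strands.
Ube2c, chr2:164595054-164595243, strand +: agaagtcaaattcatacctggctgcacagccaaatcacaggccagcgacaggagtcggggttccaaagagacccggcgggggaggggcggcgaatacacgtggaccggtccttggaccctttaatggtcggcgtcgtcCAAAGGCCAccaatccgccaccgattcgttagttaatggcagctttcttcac
Kif11, chr19:37450634-37450830, strand +: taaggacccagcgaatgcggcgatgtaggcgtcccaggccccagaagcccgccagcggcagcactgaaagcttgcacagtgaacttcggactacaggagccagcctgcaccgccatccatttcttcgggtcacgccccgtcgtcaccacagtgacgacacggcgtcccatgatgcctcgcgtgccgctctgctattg
The Ube2c stretch holds 1 such word, CAAAGGCCA, and the Kif11 stretch none. In the central 200 bases of a peak, these words were found in 15.4% to 17.6% of all peaks of the 4 lists. Of the 50 peaks at the 49 genes 4 held a word, and these were the 4 peaks at Ube2c. In the promoter windows the words were found at 1 of the 38 genes, again Ube2c, at base −237, against 1.85% of windows.

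Some of these starts are shared, which limits what a peak or a count can be tied to. Within 500 bp lay the starts of Cstf1 for Aurka (433 bp), Rhno1 for Foxm1 (83 bp), Brd8 for Kif20a (239 bp), Prkdc for Mcm4 (466 bp) and Oip5 for Nusap1 (207 bp), besides Afmid for Tk1 and Ap4m1 for Mcm7. Whether the counting used the strand is not given in the sources used here, so reads where such neighbours overlap cannot be told apart. Pcna and Stmn1 have processed copies elsewhere in the mouse genome, and how reads shared with such copies were counted is likewise not given.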

How the data were processed

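RNA-seq covered 12 libraries, 3 for each of HFDHFB, HFDLFB, LFDHFB and LFDLFB. The deposited table holds whole-number counts per gene, made by the authors with STAR 2.5 and featureCounts 1.5.0-p1 on mm9. Whether counting used the strand, and how multi-mapped reads were treated, is not given in the sources used here. Peak lists were made by the authors for each library on mm9, after Bowtie 0.12.8 alignment and Picard 1.110 duplicate removal, with SICER for H3K27ac and HOMER for HNF4a, and give positions only. Peaks of H3K4me1 were not used.

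All 15893 genes passing filterByExpr were fitted together in edgeR 4.0.16 (R 4.3.3; quasi-likelihood F test, TMM scaling, 4 groups in 1 fit, Benjamini-Hochberg threshold 0.05). The SE was taken as the absolute log2 fold change over the square root of F, and log2 CPM used a prior count of 2. DESeq2 1.42.0, the tool the study used, was an alternative, as were DESeq2 size factors, no filter on low counts, only the groups compared, a replicate block, the omission of each library, and other distances from the start. A gene had a peak when one overlapped the region within 1000 bp of its start. Exon lengths were merged exons of GENCODE vM1, found for 49 of 49 genes. In counts simulated for HFDHFB against HFDLFB over 15827 genes, edgeR called 25 of 82 genes changed 2-fold, 49 of 59 changed 4-fold and 55 of 59 changed 8-fold, and 4 unchanged genes. The p-values measure the spread between these samples only, and 3 libraries a group limit what can be called.

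The 49 genes and all lists were chosen with earlier results of these data known, and the phases were assigned by hand. Values in every library were set down for 16 genes fixed by name, of both phases and with Stmn1 and H2afx. The 5 genes called by DESeq2 and the 5 most alike outside the list followed a rule, and 1 of the latter is not reported here. The values of Ube2c and Tk1 in every library, and the other genes named for their fold changes, were chosen after their values were seen. Ccnd1, Cdkn1a and Cdkn1b were always to be shown.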

Additional observations from a re-analysis of the deposited data

Results flagged for a closer look

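The effect of the donor on H2afx, the histone variant marked at DNA breaks, differed between the diets by a log2 difference of 1.17 in DESeq2 (adjusted p = 0.0273). This value was flagged because H2afx was the only 1 of the 49 genes that DESeq2 called in this test, where edgeR called none. The edgeR value was 1.18 with an adjusted p of 0.386. DESeq2 did not call H2afx in this test without HFDLFB replicate 1 or 2, or without HFDHFB replicate 2 or 3. Nor did it without LFDHFB replicate 3, or without LFDLFB replicate 1 or 2. With any other single library left out it did. In H2afx every HFDHFB library was above every HFDLFB library, at 21.6 to 25.3 against 10.05 to 14.98 CPM, while on the LFD the donor groups overlapped.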

How the results depend on the processing

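With edgeR, none of the 49 genes was called in any of the 5 comparisons under any alternative run, and DESeq2 called 5 in HFDHFB against HFDLFB and 1 in the interaction. Leaving out each library in turn, DESeq2 called 0 to 14 of the 49 in HFDHFB against HFDLFB and 0 to 4 in the interaction, while its calls over all genes ran from 5 to 449 and from 1 to 624. The median of S phase minus that of G2/M genes, on the log2 scale, was −0.40 in HFDHFB against HFDLFB (−0.71 to −0.15 with a library left out), −0.39 in LFDHFB against LFDLFB (−0.57 to −0.23), −0.11 in HFDHFB against LFDHFB (−0.30 to 0.15) and −0.04 in HFDLFB against LFDLFB (−0.21 to 0.29), so its sign turned with single libraries in the last 2. Means in place of medians gave −0.41, −0.40, −0.08 and −0.07. Genes with an HNF4a peak in any library numbered 29, 23 to 27 with 1 library left out, and 19 to 21 with replicate 1 or replicate 2 of both diets left out, since fewer libraries were searched; distances of 500 and 2000 bp gave 29 and 30. H3K27ac in every library numbered 43, and 43 to 45. The labels do not say whether the replicate numbers pair the samples, and the values could not settle it. Of 18 same-numbered pairs, deviations from the group means had an r of −0.59 to 0.45, with 6 over 0.1. With 3 libraries a group these r are tied to each other. With the replicate block edgeR called 0 of the 49, as it did without the block. Of 272 values of single genes under alternatives, 270 kept their sign and 2 passed an adjusted p of 0.05. These 2 were DESeq2 values, since edgeR called none, and are among the calls already given.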
